A study of Mus musculus with 2 samples.

Results

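The genes described here make, recycle and spend glutathione. They were taken by symbol from the feature lists of both libraries, and all 10 were found among 31053 features: Slc7a11, Gclc, Gclm, Gss, Gsr, Gpx1, Gpx4, Glrx, Gsto1 and Gstp1. The list is one of symbols, with no cutoff on a measured value. Glutathione is a small peptide of glutamate, cysteine and glycine that cells hold as their main soluble thiol. Its supply is commonly limited by cysteine, which many cells import as cystine, and by glutamate-cysteine ligase, which carries out the slow step of synthesis. Peroxidases, glutaredoxins and transferases spend it, and glutathione reductase restores the oxidized form. Macrophages, which release oxidants and take up dying cells, are known for drawing on this system.

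The series holds 2 droplet libraries of live immune cells sorted from mouse pancreatic islets as DAPI-negative, Epcam-negative and CD45-positive. Each came from a pool of 6 to 8 male C57BL/6J mice fed a chow diet, with no transgene or drug named in the labels. One library carries the time label 1 week and the other 12 weeks. What the weeks count and how old the mice were are not given in the labels, and the libraries also differ in experiment number, so experiment and time cannot be told apart. Each transcript was tagged with a unique molecular identifier (UMI) near its 3' end, so that levels are UMI counts scaled to CPM (counts per 1e6 UMIs of a cell group) and are not divided by transcript length.

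The 1-week library held 12858754 UMIs in 1551 barcodes and the 12-week library 12448628 UMIs in 1867 barcodes. Before filtering, 3 barcodes were shared between libraries. Filters on genes, UMIs and mitochondrial share left 1340 and 1752 cells. Macrophages were cells in which C1qa, C1qb and C1qc, the subunits of complement C1q, summed to 5 UMIs or more. These were 1243 cells at 1 week and 1620 at 12 weeks. The other 8 macrophage markers were detected in a median of 78.7% and 79.7% of them, and Adgre1 (F4/80) in 70.2% and 70.4%. The lowest of these markers were Fcgr1, in 34.2% and 24.8%, and Mrc1, in 12.4% and 14.9%. Cells below the C1q cutoff in clusters named from markers gave 26 and 29 B-like, 10 and 40 T-like, and 17 and 33 dendritic-like cells. Among 12 dendritic markers, Cacnb3 was at 0 in both dendritic-like groups and Fscn1 at 0 in the one at 12 weeks. Summed macrophage markers, with the 3 C1q genes included, stood at 37708 and 40188 CPM in macrophages, and between 198 and 1504 CPM in the other groups. C1q alone gave 9984 and 8965 CPM in macrophages, so part of this gap was set by the C1q rule. No doublet caller was run, and mixed droplets remained: 15 and 1 cells of the B-like clusters, 10 and 16 of the T-like and 5 and 4 of the dendritic-like met the C1q rule and were counted as macrophages. So were 6 and 1 cells of an endocrine cluster, 1 and 5 of an endothelial and 0 and 2 of a neutrophil cluster. A cluster led by 3 erythroid (hemoglobin) transcripts, with 67 and 251 cells, was not given that name because 99.1% of its cells met the C1q rule. Erythroid transcripts summed to 37.9 and 146 CPM in macrophages. Summed endocrine transcripts, from the hormone-making islet cells, reached 19779 CPM in 1-week macrophages and 5772 CPM in 12-week macrophages, with cells of other named clusters included. Without those cells, the 7 macrophage clusters described below held them at 1379 to 5776 CPM at 1 week and 1280 to 3985 CPM at 12 weeks. The part of endocrine and erythroid transcripts in the values below was not tested.

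Near the cutoff, cells with 5 to 9 C1q UMIs (25 and 18 cells) held the 10 genes at a summed 394 and 1161 CPM. Cells with 1 to 4 C1q UMIs (45 and 47 cells) held them at 545 and 985 CPM, and cells with at least 10 at 1356 and 1604 CPM.

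Promoter sequence is shown for Slc7a11, which imports cystine, and Gclm, the modifier subunit of glutamate-cysteine ligase, because these were among the members whose counts went together most in single macrophages. Each line gives the 250 bases before the annotated start, 5′ to 3′ on the gene's strand, from RefSeq on GRCm38.p6, with motif matches in capitals. The Slc7a11 stretch is chr3:50443614-50443863 on the minus strand, and the Gclm stretch is chr3:122245307-122245556 on the plus strand.
Slc7a11: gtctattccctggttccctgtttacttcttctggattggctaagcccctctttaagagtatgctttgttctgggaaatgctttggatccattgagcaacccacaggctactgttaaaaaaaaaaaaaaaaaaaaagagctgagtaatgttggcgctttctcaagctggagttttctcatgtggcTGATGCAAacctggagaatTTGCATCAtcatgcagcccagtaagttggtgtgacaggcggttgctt
Gclm: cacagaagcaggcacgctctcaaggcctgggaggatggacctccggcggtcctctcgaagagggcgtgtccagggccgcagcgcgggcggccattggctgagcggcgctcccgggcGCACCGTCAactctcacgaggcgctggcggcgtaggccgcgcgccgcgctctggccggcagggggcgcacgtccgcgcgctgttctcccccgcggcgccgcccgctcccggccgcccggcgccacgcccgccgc
The motifs searched on both strands were TGACNNNGC, the core of the antioxidant response element, TGATGNAA, the core of the C/EBP-ATF (amino acid) response element, and TGACTCA, the AP-1 site. None of the matches overlapped another. The Slc7a11 stretch held TGATGCAA from 66 to 59 bases before the start, and TTGCATCA, the same core on the opposite strand, from 47 to 40 bases before it. The Gclm stretch held GCACCGTCA, an antioxidant response element core on the opposite strand, from 134 to 126 bases before the start. Of the 32851 mouse promoters of 300 bases in the table (250 before and 50 after a start), 12.4% held TGACNNNGC, 3.97% TGATGNAA and 5.20% TGACTCA. The table held 8 of the 10 members, all but Gclc and Gsr. Among the rest, Glrx and Gstp1 each had a TGACTCA match, 98 and 74 bases before the start. A match is a string of letters and not a measured binding site.

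Slc7a11, Gclc and Gclm stood higher in macrophages than in B- and T-like cells. Slc7a11 was the member furthest above the mean of the other classes, and dendritic-like cells were the other class in which it was abundant. Slc7a11 (chr3:49892526-50443614, minus strand) encodes xCT, the light chain of the cystine-glutamate exchanger. Its level in macrophages was 244 CPM at 1 week (2780 UMIs) and 297 CPM at 12 weeks (3397 UMIs). B-like cells gave 1 UMI at 1 week and 0 at 12 weeks, in 193340 and 112641 UMIs, which allows up to 26.6 CPM for the latter. T-like cells gave 0 UMIs of 30264 at 1 week, which allows up to 99.1 CPM, and 45.1 CPM (8 UMIs) at 12 weeks. Dendritic-like cells gave 264 CPM (42 UMIs) and 202 CPM (51 UMIs). Both macrophage values therefore lay above every B- and T-like value, and between and above those of dendritic-like cells. Folds given with a standard error (SE), and adjusted p-values between classes, come from edgeR's quasi-likelihood test on counts summed per class and library. Library was a blocking factor, and p was adjusted over 3117 genes by Benjamini-Hochberg. Values for a single library, here and for clusters, are log2 differences of CPM without the scaling between profiles (TMM) used in the fit. They need not lie on both sides of the fitted fold. Slc7a11 was higher in macrophages by 3.35 ± 0.37 (log2, SE; adjusted p = 1.35e-06) against the mean of the other 3 classes. The log2 difference was 6.42 ± 0.74 against B-like cells (adjusted p = 3.18e-06) and 3.25 ± 0.52 against T-like cells (adjusted p = 9.78e-05). With so few UMIs in B-like cells the counting interval is wide: the 1-week ratio was 47.1 (95% interval 8.45 to 1862). At 12 weeks the ratio was 11.1 with the 0 UMIs read as 3 counts, and the lower limit of its exact 95% interval was 9.06. Against dendritic-like cells the log2 difference was 0.37 ± 0.31 and missed the threshold (adjusted p = 0.471), with ratios of 0.924 (0.681 to 1.28) at 1 week and 1.47 (1.11 to 1.97) at 12 weeks. Macrophage markers in those dendritic-like cells, C1q included, summed to 1106 and 1504 CPM, and C1q to 31.4 and 47.6 CPM against 9984 and 8965 CPM in macrophages. Low C1q in the dendritic-like cells was set by the rule that chose them.

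Both subunits of glutamate-cysteine ligase were called higher in macrophages than in each other class, least securely for Gclc against B-like cells. Gclc (chr9:77754535-77794485, plus strand), the catalytic subunit, was at 75.3 and 122 CPM in macrophages at 1 and 12 weeks. It was at 25.1 and 35.7 CPM in dendritic-like, at 25.9 and 71.0 in B-like, and at 0 and 33.9 in T-like cells. The log2 difference from the mean of the others was 1.84 ± 0.30 (adjusted p = 9.45e-05). It was smallest against B-like cells, at 1.24 ± 0.42 (adjusted p = 0.0271), where the 12-week library alone gave 0.78 and the 1-week library 1.54. The 12-week ratio to B-like cells was 1.72, with a counting interval of 0.869 to 3.98 that includes 1. That B-like call was lost without the library block (adjusted p = 0.0640), with cells sorted into classes by marker UMIs (0.0581) and with a stricter cell filter (0.0831). Gclm (chr3:122245557-122270732, plus strand) was at 142 and 265 CPM in macrophages, 81.7 and 67.4 in dendritic-like, 51.7 and 17.8 in B-like, and 33.0 and 33.9 in T-like cells. Gclm macrophage values lay above those of every other class in both libraries, but some of the latter rested on few UMIs. The 1-week T-like value was 1 UMI, and the ratio of macrophages to it was 4.30, with a counting interval of 0.771 to 170. The 1-week T-like group was therefore too small to place Gclm. At 12 weeks the ratio to T-like cells was 7.82 (3.59 to 21.3, from 6 UMIs). For Gclm in B-like cells it was 14.9 (4.12 to 123, from 2 UMIs). The log2 difference from the mean of the others was 2.35 ± 0.32 (adjusted p = 1.22e-05), and it was 1.45 from the 1-week library alone and 2.95 from the 12-week library alone. Against dendritic-like cells it was 1.60 ± 0.39 (adjusted p = 0.00659; 0.0648 in DESeq2), with 0.80 at 1 week and 1.97 at 12 weeks. The last 600 bases of Gclm share a stretch of at least 91 bases at 97% identity or more with Ppia, an abundant housekeeping gene, so counts could pass between them. Ppia was at 1508 and 1481 CPM in macrophages and at 1531 and 2184 CPM in B-like cells, where Gclm was at 51.7 and 17.8 CPM, and at 1916 and 1958 CPM in T-like cells. Gss (chr2:155563181-155592810, minus strand), glutathione synthetase, adds glycine in the last step. Its level was 6.40 and 8.83 CPM in macrophages, and 0 to 2 UMIs were counted in any other group, so it fell below the filter on low counts and was not tested between classes.

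Of the 10 members, 9 passed that filter. Gclc, Gsr and Glrx passed it through their macrophage levels, since too few profiles of the other classes were high enough. Their higher calls are therefore not independent of the filter. With no filter on low counts, 7 of the 10 members were called higher against the mean of the other classes, beside 1725 of 17758 genes. Against the mean of the other classes, 7 of the 9 were higher in macrophages, where 26.7% of all tested genes were called higher. None was called lower in edgeR, none was lower at an unadjusted p under 0.05, and none was lower in DESeq2, where 12.6% of all genes were called lower by edgeR. The 9 members had a median log2 difference of 1.83, beside 0.01 over all tested genes. With RLE in place of TMM scaling the median of all genes moved to 0.12 and that of the members to 1.94. With no filter on low counts it was 1.20 over 17758 genes and 1.66 over the 10 members. Against B-like cells 7 of 9 were higher (23.9% of all genes) and none lower (14.6%), with a median of 1.88 beside 0.04. Against T-like cells 5 were higher (22.2%) and 1 lower (12.7%), with a median of 1.51 beside 0.06. Against dendritic-like cells 3 were higher (12.3%) and none lower (7.89%), with a median of 0.38 beside 0.01. With no filter on low counts that order turned, with 0.56 for the members beside 0.92 over all genes. The 0 lower calls against B-like and dendritic-like cells were also 0 at an unadjusted p under 0.05 and 0 in DESeq2. The fit left 3 residual degrees of freedom, and the test also pools the spread of counts over all tested genes. The p-values measure class differences against variation between 2 libraries that carry different time labels, in part shared over genes. These comparisons share the macrophage profiles and are not independent of each other.

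**Figure D1:**
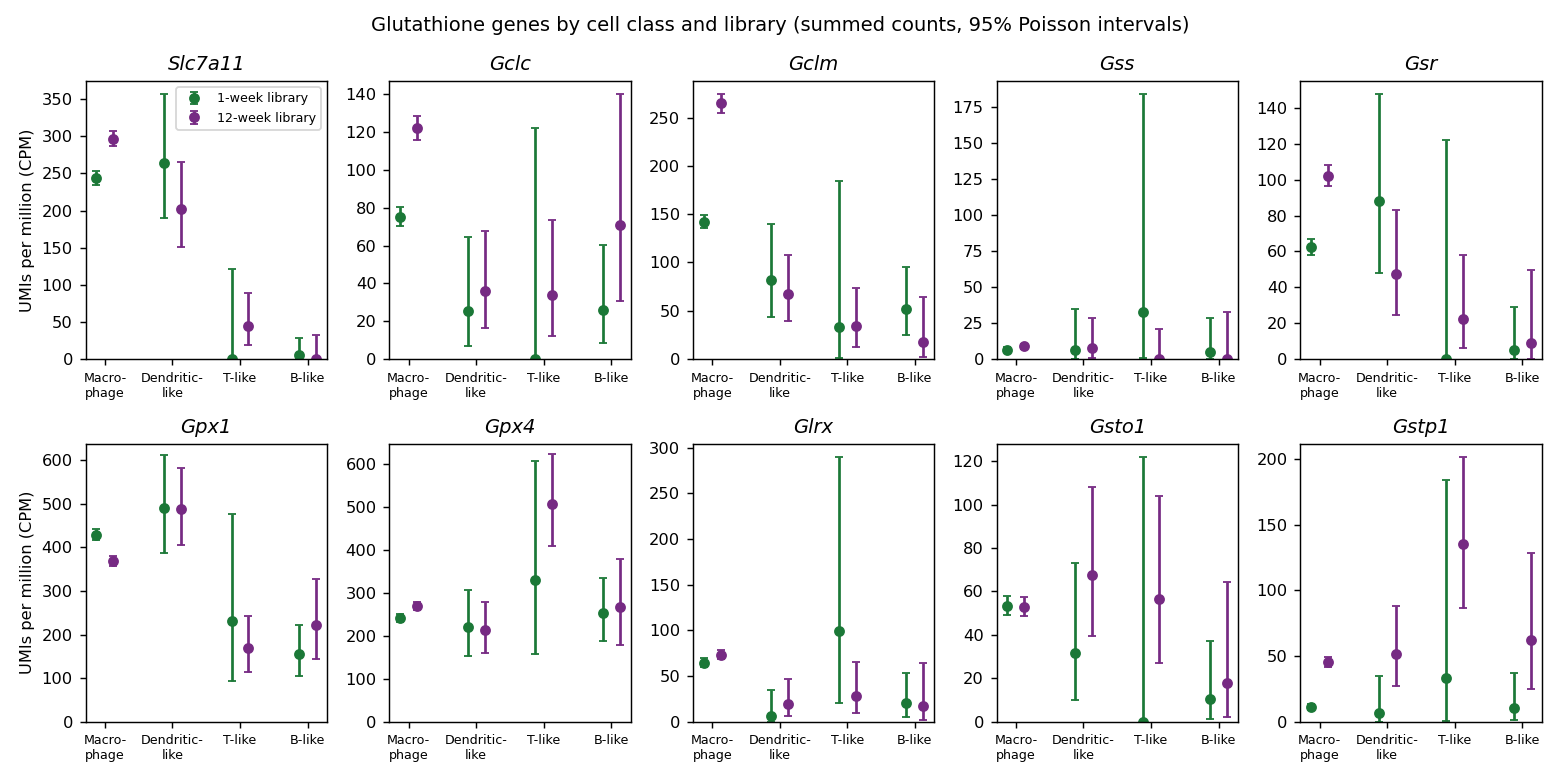
Level of each glutathione gene (CPM, y axis from 0) in macrophages and in dendritic-like, T-like and B-like cells with low C1q. Points are summed counts of the 1-week (green) and 12-week (purple) library, and bars are 95% Poisson intervals for counting error; Slc7a11 is high in macrophages (244 and 297 CPM) and dendritic-like cells (264 and 202 CPM) and near 0 in B-like cells.

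Recycling followed a mixed pattern. Gsr (chr8:33652523-33698163, plus strand), glutathione reductase, was at 62.2 and 102 CPM in macrophages. It was at 88.0 and 47.6 CPM in dendritic-like cells, so that the classes changed order between libraries. B-like cells gave 1 UMI in each library, and T-like cells gave 0 UMIs at 1 week and 4 UMIs at 12 weeks. The log2 difference of Gsr was 3.67 ± 0.77 against B-like cells (adjusted p = 0.00116) and 2.59 ± 0.69 against T-like cells (adjusted p = 0.00705). Against dendritic-like cells it was 0.48 ± 0.41 (adjusted p = 0.482). At 1 week the T-like group was too small to place Gsr or Gclc: its 0 UMIs allow 99.1 CPM, more than the macrophage level of either gene. The 12-week ratio of macrophages to T-like cells was 4.52 (1.76 to 16.6) for Gsr and 3.60 (1.65 to 9.83) for Gclc.

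Peroxidases differed from each other. Gpx1 (chr9:108338903-108340343, plus strand), the cytosolic peroxidase of hydrogen peroxide, was at 429 and 368 CPM in macrophages, 490 and 488 in dendritic-like, 231 and 169 in T-like and 155 and 222 in B-like cells. It was higher in macrophages by a log2 difference of 1.22 ± 0.30 against B-like cells (adjusted p = 0.00433) and 1.51 ± 0.34 against T-like cells (adjusted p = 0.00202). The B-like difference was 1.47 at 1 week and 0.73 at 12 weeks, and the T-like difference 0.89 and 1.12. Against dendritic-like cells it was -0.16 ± 0.27 (adjusted p = 0.739). Gpx4 (chr10:80047166-80056439, plus strand), the peroxidase of membrane lipid hydroperoxides, was at 241 and 269 CPM in macrophages, and at 253 and 266 in B-like and 220 and 214 in dendritic-like cells. T-like cells gave 330 and 508 CPM. Its log2 difference from the mean of the others was 0.01 ± 0.23 (adjusted p = 0.982), and it passed the threshold against no class. The ratio to T-like cells was 0.729 (0.396 to 1.52) at 1 week and 0.529 (0.429 to 0.660) at 12 weeks.

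Glutaredoxin and transferases also split. Glrx (chr13:75839868-75850154, plus strand), which removes glutathione from protein thiols, was at 64.7 and 73.2 CPM in macrophages and at 6.28 and 19.8 CPM in dendritic-like cells, which is 1 and 5 UMIs. Its log2 difference was 2.40 ± 0.55 against dendritic-like cells (adjusted p = 0.00418; 3.36 at 1 week and 1.88 at 12 weeks) and 1.88 ± 0.57 against B-like cells (adjusted p = 0.0154). Against T-like cells the adjusted p was 0.112, and the 1-week T-like value of 99.1 CPM rested on 3 UMIs. Gsto1 (chr19:47854970-47864790, plus strand), an omega-class transferase with thiol reductase activity, was at 53.4 and 52.9 CPM in macrophages and 31.4 and 67.4 CPM in dendritic-like cells. Against the mean of the others its log2 difference was 0.99 ± 0.37 (adjusted p = 0.0446), which was lost in DESeq2 (0.0731) and without the block (0.0630), and the 12-week library alone gave 0.38. Gsto1 in B-like cells was 2 UMIs in each library, with a log2 difference of 2.09 ± 0.68 (adjusted p = 0.0218). Gstp1 (chr19:4035407-4037985, minus strand), the pi-class transferase that conjugates electrophiles, was at 11.1 and 45.1 CPM in macrophages and 33.0 and 135 CPM in T-like cells (1 and 24 UMIs). It was lower in macrophages than in T-like cells by -1.19 ± 0.44 (log2; adjusted p = 0.0463). That call was absent from 7 of the alternatives run, DESeq2 included (adjusted p = 0.200). Gstp1 shares part of its end with Gstp2, which was at 0.877 and 2.10 CPM in macrophages and at 0 UMIs in the other classes.

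**Figure D2:**
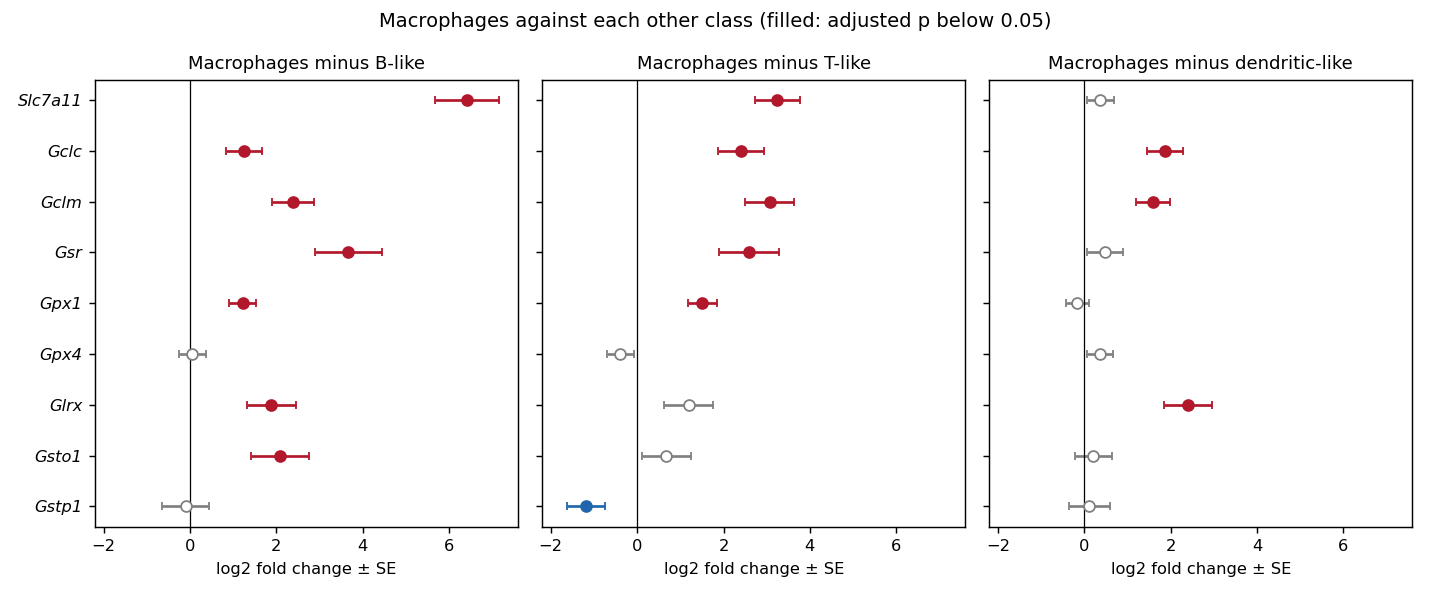
Log2 fold change of the 9 tested members between macrophages and each other class (x axis, bars are SE from edgeR), with filled points at an adjusted p below 0.05. Gclc and Gclm are filled in all 3 panels, Slc7a11 is filled against B-like (6.42) and T-like (3.25) cells and open against dendritic-like cells (0.37), and Gpx4 is open throughout.

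The wider glutathione pathway was read from a list of 57 other genes, of which 8 passed the filter. Against the mean of the other classes 4 were higher and 1 lower, where 26.7% of all tested genes were called higher and 12.6% lower. Hpgds, a prostaglandin D synthase that uses glutathione, was higher by 3.30 ± 0.36 (log2), and Esd, which hydrolyses S-formylglutathione, by 1.98 ± 0.30. Slc3a2, the heavy chain that pairs with Slc7a11 in the exchanger, was higher by 1.83 ± 0.33, and Abcc1, an exporter of glutathione and its conjugates, by 1.86 ± 0.48. Prdx6, a peroxiredoxin that uses glutathione, was lower by -0.71 ± 0.25 (edgeR adjusted p = 0.0307). That call was lost in DESeq2, with RLE scaling, with no filter on low counts, without the block and with the stricter cell filter. It was also lost with other classes held to 1 C1q UMI or fewer and with classes set by marker UMIs. It held in macrophages with at least 10 C1q UMIs and without macrophages from other named clusters. By class, the Prdx6 difference was -1.96 ± 0.31 against T-like cells (edgeR adjusted p = 8.30e-05, and 2.94e-06 in DESeq2). It was -0.90 ± 0.29 against dendritic-like cells (edgeR adjusted p = 0.0371, and 0.120 in DESeq2). Against B-like cells it had the opposite sign, at 0.73 ± 0.38 (edgeR adjusted p = 0.147). Counts of the 8 were 4 higher and 0 lower against B-like cells (3 and 0 in DESeq2), beside 23.9% and 14.6% of all tested genes. They were 3 and 1 against T-like cells (3 and 1 in DESeq2), beside 22.2% and 12.7%. Against dendritic-like cells they were 3 and 1 (2 and 0 in DESeq2 and also without the block), beside 12.3% and 7.89%. With no filter on low counts, 10 of 53 were higher and 1 lower against the mean of the other classes, beside 1725 and 209 of 17758 genes. Slc3a2 passed against dendritic-like cells (1.93 ± 0.45, adjusted p = 0.00458), the class in which its partner Slc7a11 did not.

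Within macrophages, the order of levels at 1 week was Gpx1, then Slc7a11 and Gpx4, then Gclm, Gclc, Glrx, Gsr, Gsto1, Gstp1 and Gss. The 95% counting intervals of Slc7a11 (235 to 253 CPM) and Gpx4 (232 to 250 CPM) overlapped, as did those of Glrx (60.1 to 69.5) and Gsr (57.7 to 67.0) and those of Gsr and Gsto1 (49.2 to 57.8). At 12 weeks the order was Gpx1, Slc7a11, Gpx4, Gclm, Gclc, Gsr, Glrx, Gsto1, Gstp1 and Gss. There the intervals of Gpx4 (259 to 278 CPM) and Gclm (255 to 274 CPM) overlapped, as did those of Gsto1 (48.7 to 57.3) and Gstp1 (41.3 to 49.2). Gss, the last synthesis step, was lowest in both.

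To compare single cells at equal depth, each macrophage was thinned to 3000 UMIs, which kept 1089 and 1530 cells and left out 154 and 90 shallower ones. Gpx1 was detected in 66.9% of macrophages at 1 week (exact binomial 95% interval 64.0 to 69.6) and 60.7% at 12 weeks (58.2 to 63.1), and Gpx4 in 49.1% and 50.8%. Slc7a11 was detected in 32.0% (29.2 to 34.8) and 32.5% (30.2 to 35.0). Without thinning, the Slc7a11 shares were 47.9% and 44.0%. In B-like cells at the same depth, 1 of 24 and 0 of 17 had a Slc7a11 UMI, and before thinning their median depth was 5540 and 3074 UMIs against 7401 and 6891 in macrophages. The intervals of those small groups reach 21.1% and 19.5%, below the macrophage shares. Dendritic-like cells at that depth had a Slc7a11 UMI in 5 of 17 (29.4%) and 8 of 31 (25.8%). Gclm was detected in 27.0% (24.4 to 29.7) and 45.7% (43.2 to 48.2), Gclc in 18.5% and 26.5%, and Gsr in 15.3% and 24.6%. Glrx was seen in 16.2% and 18.4%, Gsto1 in 13.8% and 12.7%, Gstp1 in 3.40% and 11.6%, and Gss in 1.74% and 2.22%. A median macrophage showed 2 of the 10 members at 1 week and 3 at 12 weeks, while 4.32% and 2.03% of cells showed none.

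**Figure D3:**
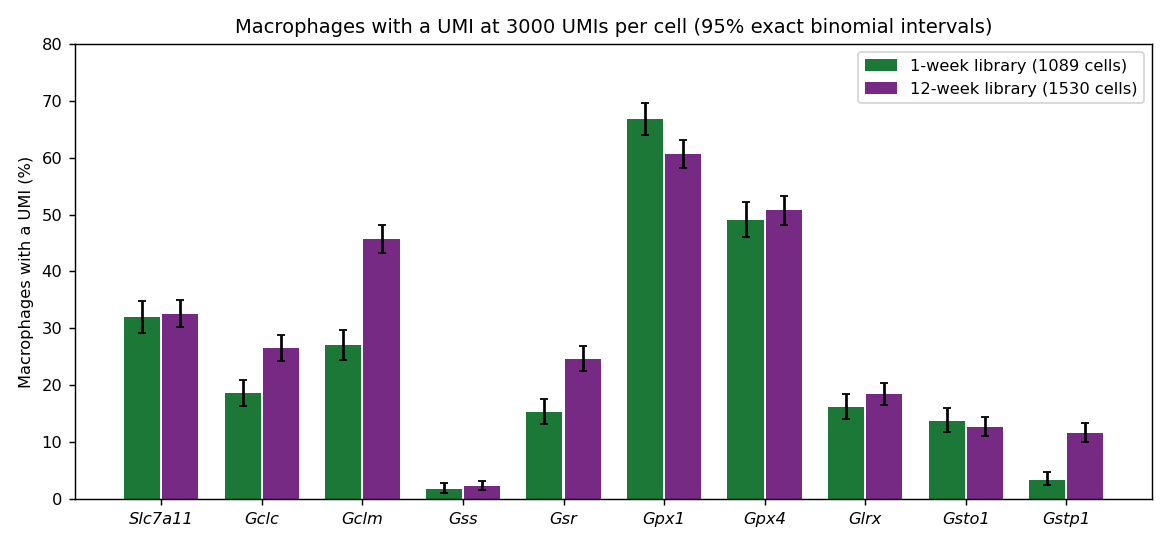
Share of macrophages with at least 1 UMI of each gene after thinning to 3000 UMIs per cell (y axis, percent) in the 1-week (green, 1089 cells) and 12-week (purple, 1530 cells) library. Bars start at 0 and error bars are 95% exact binomial intervals; Gclm stands at 27.0% and 45.7%, while Slc7a11 stands at 32.0% and 32.5%.

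Of the 10 members, Slc7a11 had the highest variance over its mean (Fano factor) at 3000 UMIs. It was 3.60 at 1 week and 3.73 at 12 weeks, beside a median of 1.11 over all genes compared in each library. Gclm gave 1.75 and 1.72, Gpx1 1.53 and 1.56, and Gpx4 1.14 and 1.19. The tenth of cells with the most Slc7a11 held 60.9% and 63.0% of its UMIs, with up to 27 and 15 UMIs in 1 cell. For Gpx1, which has a higher mean, that share was 33.8% and 35.5%, and for Gpx4, with a mean near that of Slc7a11, it was 36.5% and 36.2%. The share grows as a gene is detected in fewer cells, and it was higher than for Slc7a11 in Gss, Gstp1, Gsto1 and Glrx in both libraries. At 1 week it was also higher in Gclc (62.9%) and Gsr (69.5%).

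Slc7a11, Gclc, Gclm and Gsr, for import, synthesis and recycling, were counted together in single macrophages more than the peroxidases were. Gclm was detected in 39.7% of 1-week macrophages with a Slc7a11 UMI and in 21.1% of those without, and at 12 weeks in 57.8% and 39.8%. For Gsr the shares with and without Slc7a11 were 22.7% and 11.9% at 1 week and 29.7% and 22.2% at 12 weeks. Gpx4 did not follow Slc7a11: its shares were 49.1% with and 49.1% without at 1 week, and 48.8% and 51.7% at 12 weeks. Gpx1 ran the other way, with 59.2% and 70.4% at 1 week and 56.2% and 62.8% at 12 weeks. Across cells of equal depth, Pearson's r was 0.20 and 0.19 for Slc7a11 with Gclm, 0.20 and 0.18 for Gclc with Gclm, and 0.17 and 0.13 for Gclm with Gsr. It was -0.14 and -0.09 for Slc7a11 with Gpx1. For Gss it was 0.10 and 0.07 with Slc7a11, and 0.06 or less in both libraries with Gclc, Gclm or Gsr. Gclc with Gsr was at 0.13 and 0.05, the 12-week value being below that of Slc7a11 with Gss. These values are weak, the cells of a library share 1 pool and 1 preparation, and they are given as a description.

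**Figure D4:**
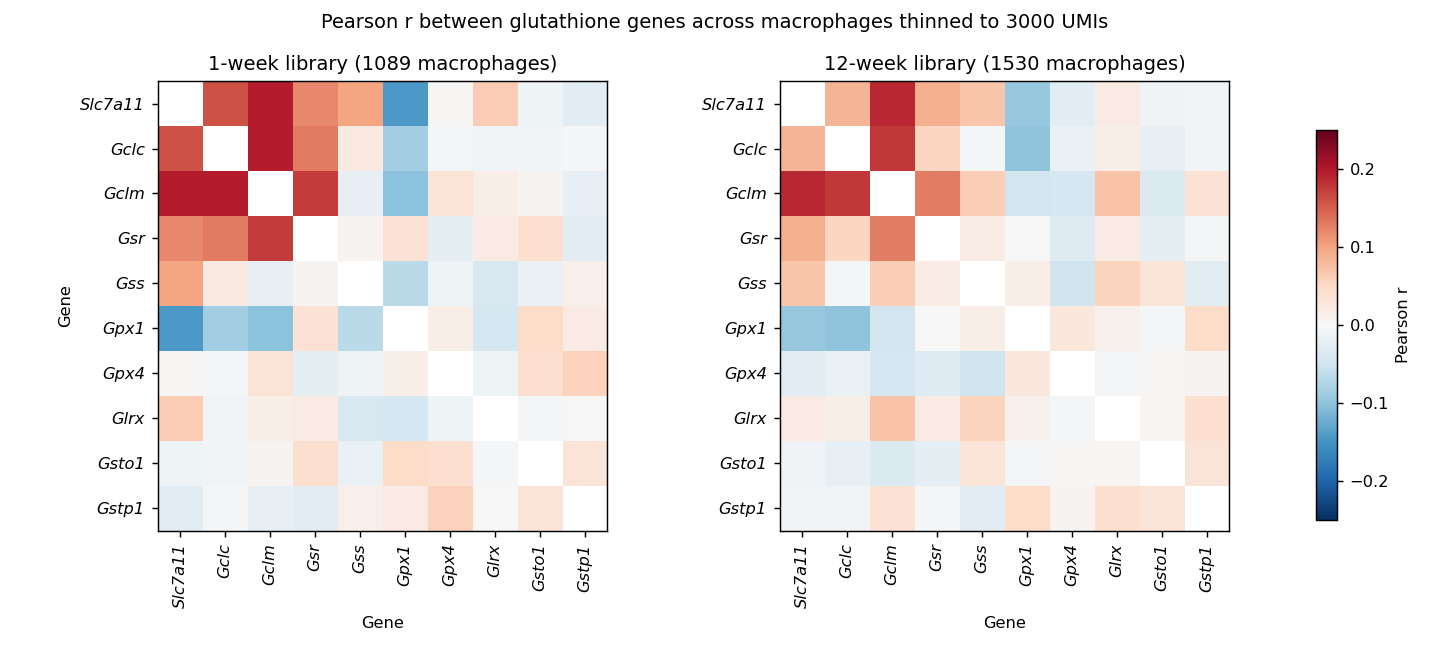
Pearson's r between each pair of members across macrophages thinned to 3000 UMIs, in the 1-week (left) and 12-week (right) library, with red above and blue below 0. The red block holds Slc7a11, Gclc, Gclm and Gsr, with r of 0.20 and 0.19 for Slc7a11 with Gclm. Slc7a11 with Gss is also red (0.10 and 0.07), and Gpx1 is blue against Slc7a11 (-0.14 and -0.09).

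Likeness was measured as the lower of the r values in both libraries, over 2510 genes detected in at least 10% of thinned macrophages. Gclm was most like Prdx1 (0.40 and 0.36), Hmox1 (0.40 and 0.35) and Srxn1 (0.33 and 0.26). Slc7a11 was most like Prdx1 (0.32 and 0.29), Cxcl2 (0.25 and 0.27) and Hmox1 (0.31 and 0.24). For Gclc the order was Hmox1 (0.33 and 0.28), Gclm (0.20 and 0.18) and Srxn1 (0.21 and 0.18), and for Gsr it was Prdx1 (0.22 and 0.26), Ftl1 (0.14 and 0.15) and Mt1 (0.17 and 0.13). Gpx1 was most like C1qc (0.19 and 0.16), Tmsb4x (0.19 and 0.15) and C1qa (0.23 and 0.15), and C1q counts were used to choose the cells. The nearest gene of Gpx4 was Rps29 (0.08 and 0.08), that of Glrx was Zeb2 (0.07 and 0.07) and that of Gsto1 was Nip7 (0.07 and 0.07). Gss and Gstp1 were below that detection share in at least 1 library and were not ranked.

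Among macrophages, clustering without the members and without the 57 pathway genes gave 7 clusters, kept here by number and leading genes. Each was tested against the mean of the other 6 with edgeR over 8062 genes, 14 summed profiles and 6 residual degrees of freedom. These p-values are smaller than for groups known beforehand, since the clusters were formed from the same cells. Cluster 6 (Slc40a1, Itgb8, Nes; 33 and 161 cells) had higher Slc7a11, Gclm, Gclc and Gsr. Slc7a11 was at 302 and 618 CPM there, Gclm at 350 and 397, Gclc at 177 and 148, and Gsr at 142 and 175. These 4 members were higher by 1.28 ± 0.23, 1.07 ± 0.21, 1.04 ± 0.25 and 1.01 ± 0.19 (log2), with adjusted p between 0.00275 and 0.0211. In this contrast 1.98% of all genes were called higher and 0.968% lower, and no member was called lower (1 at an unadjusted p under 0.05, none in DESeq2). From the 1-week library alone the Gclc and Gclm differences were 1.77 and 1.70, and from the 12-week library 0.72 and 0.73, while for Slc7a11 they were 0.92 and 1.64. All 4 calls were lost without the library block.

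Cluster 4 (Txndc16, Pclaf, Yae1d1; 233 and 29 cells) was the low end for the same genes. Slc7a11 was at 49.7 and 78.4 CPM, Gclm at 38.3 and 186, Gclc at 28.4 and 83.3, and Gsr at 39.0 and 63.7 CPM. Log2 differences were -2.32 ± 0.33 for Slc7a11, -1.65 ± 0.27 for Gclm, -1.29 ± 0.32 for Gclc and -1.02 ± 0.24 for Gsr, with adjusted p between 9.99e-06 and 0.00345. The 12-week library alone, with 29 cells, gave -0.54 for Gclm and -0.25 for Gclc, against -2.02 and -1.31 from the 1-week library. Gpx1 and Gstp1 were higher in this cluster, by 0.49 ± 0.13 (adjusted p = 0.00606) and 0.95 ± 0.29 (adjusted p = 0.0154). Gpx1 reached 702 and 544 CPM there, the highest of the 7 clusters in each library, while the Gstp1 difference was 1.42 from the 1-week and 0.69 from the 12-week library, and its call was lost without the block (adjusted p = 0.894). In this contrast 16.9% of all genes were called higher and 14.9% lower, so 2 higher and 4 lower members stand beside a high background. Cells of this cluster were shallow, with medians of 4213 and 3856 UMIs, and the part of depth was not tested.

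Fewer members were called in the remaining clusters. In cluster 3 (AC130815.2, Il10, Cxcl1; 272 and 156 cells) Slc7a11 was at 372 and 729 CPM, higher by 1.53 ± 0.20 (adjusted p = 9.57e-05; 1.27 at 1 week and 1.91 at 12 weeks). There 2.39% of all genes were called higher and 0.211% lower. In cluster 1 (Hspa1b, Hbb-bs, Hspa1a; 220 and 600 cells) Gclc was at 111 and 195 CPM, higher by 1.23 ± 0.19 (adjusted p = 7.57e-05), and Gpx1 was at 297 and 293 CPM, lower by -0.40 ± 0.13 (adjusted p = 0.0346). The Gpx1 call was lost with no filter on low counts (adjusted p = 0.125) and without the block (0.178). Of all genes 10.7% were called higher and 5.28% lower in that contrast. Heat shock transcripts summed to 13050 and 15408 CPM in cluster 1 and to between 250 and 4093 CPM in the other clusters, and their part in the Gclc value was not tested. Gclc was lower in cluster 2 (Gm36266, S100a4, Arl11) by -0.81 ± 0.23 (adjusted p = 0.0414), where 2.12% of all genes were called higher and 2.33% lower, with -0.30 from the 1-week library and -1.18 from the 12-week library. That call was lost in DESeq2 (adjusted p = 0.157) and without the block (0.259). Gpx1 was higher in cluster 5 (Olfr655, Gcg, Cxcl3) by 0.52 ± 0.14 (adjusted p = 0.0315; 0.36 and 0.09 from single libraries), where 2.91% of all genes were called higher and 0.769% lower. It was lost with no filter on low counts (adjusted p = 0.0742) and without the block (0.178). No member passed in cluster 7 (Ifit1, Rsad2, Ifit3), where 1 was lower at an unadjusted p under 0.05 in edgeR and none in DESeq2, and 6.16% of all genes were called higher and 0.509% lower. Over all 7 contrasts the members gave 9 higher and 6 lower calls, and without the library block 3 higher and 4 lower.

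**Figure D5:**
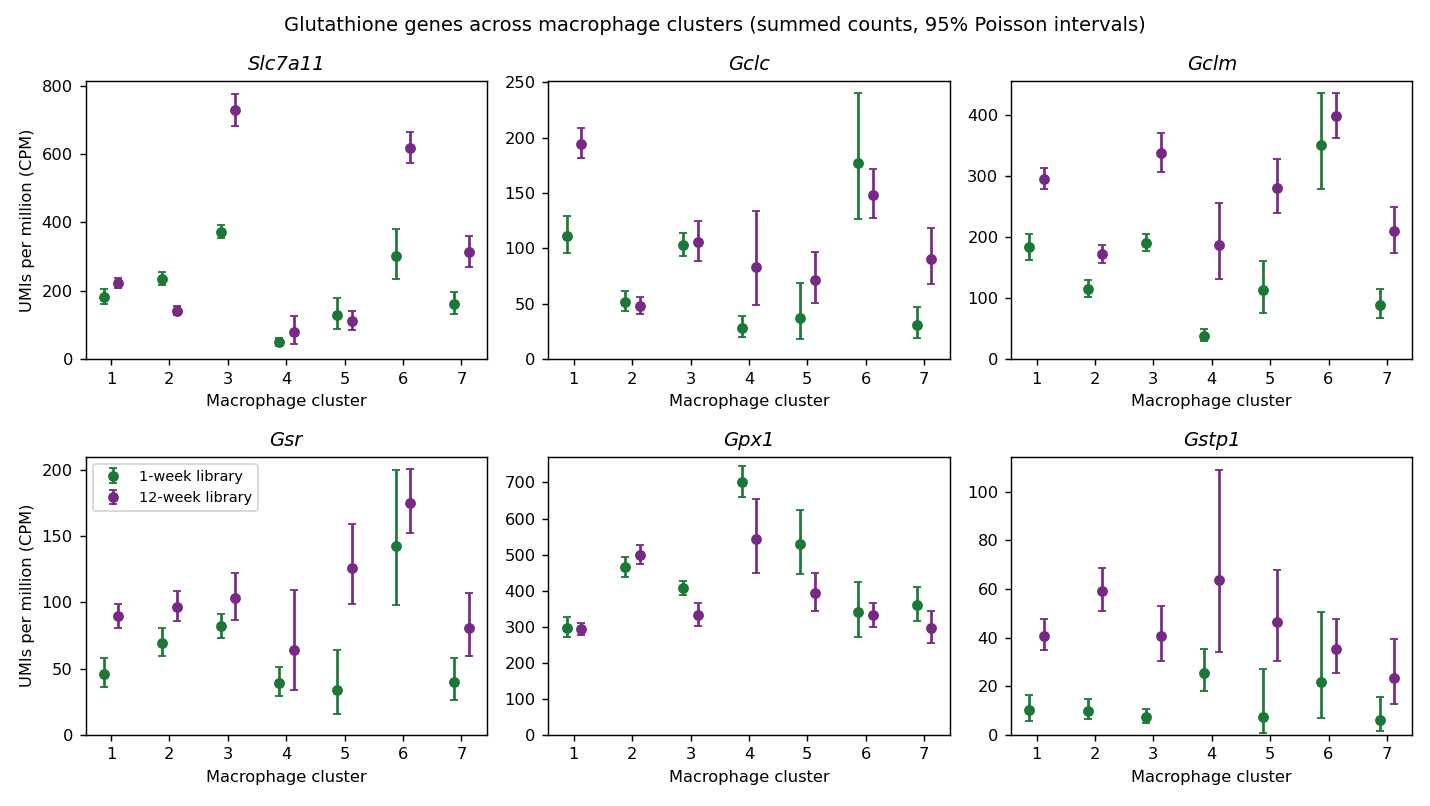
Levels (CPM, y axes from 0) of 6 members in the 7 macrophage clusters (x axis) of the 1-week (green) and 12-week (purple) library, with 95% Poisson intervals. Slc7a11 peaks in clusters 3 (372 and 729 CPM) and 6 (302 and 618 CPM) and is lowest in cluster 4 (49.7 and 78.4 CPM), where Gpx1 is highest (702 and 544 CPM).

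Between the time labels there was 1 library each, so ratios of 12 weeks over 1 week carry intervals for counting error only and no test. In macrophages 4 of the 10 members were past 1.5-fold higher at 12 weeks and none past 1.5-fold lower. Over 7660 genes with a mean of at least 5 CPM, 5.16% were past that fold higher and 6.66% lower, with a median ratio of 0.964. Gstp1 had the largest ratio, 4.05 (3.33 to 4.96). Gclm was at 1.86 (1.75 to 1.98), Gsr at 1.64 (1.49 to 1.80) and Gclc at 1.62 (1.49 to 1.76). Slc7a11 stood at 1.22 (1.16 to 1.28), Gss at 1.38 (1.01 to 1.89), Glrx at 1.13 (1.02 to 1.25), Gpx4 at 1.12 (1.06 to 1.18) and Gsto1 at 0.990 (0.884 to 1.11). Gpx1, the most abundant member, had the lowest ratio, at 0.858 (0.823 to 0.894).

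The clusters held different shares of the macrophages in each library. With the clusters weighted equally, the ratio of Gclc was 1.37, below 1.5-fold, and that of Slc7a11 was 1.55, above it, while Gclm was at 1.74, Gsr at 1.62 and Gstp1 at 3.50. Within clusters, Gclm, Gsr and Gstp1 were higher at 12 weeks in 7 of 7, and Gclc and Slc7a11 in 5 of 7. Gclc was at 51.8 and 47.8 CPM in cluster 2 and at 177 and 148 CPM in cluster 6. Slc7a11 was at 236 and 141 CPM in cluster 2 and at 128 and 110 CPM in cluster 5. Gstp1 ratios in the other classes rested on few UMIs, and their counting interval lay above 1 in B-like and dendritic-like cells but not in T-like cells. The ratio was 6.01 (1.14 to 59.3) in B-like cells from 2 and 7 UMIs, 4.10 (0.668 to 169) in T-like cells from 1 and 24, and 8.21 (1.23 to 349) in dendritic-like cells from 1 and 13. Gclm in those classes showed no such shift beyond counting error, with ratios of 0.343 (0.0366 to 1.61), 1.02 (0.124 to 47.1) and 0.826 (0.378 to 1.85) in B-, T- and dendritic-like cells.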

How the data were processed

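The deposited files hold raw UMI counts per gene and barcode, made by the authors with Cell Ranger against mm10, per the submitters' processing notes (version 3.1.0 per the file headers). Settings for calling barcodes as cells were not given in the sources used here. Barcodes with at least 500 genes, 1000 UMIs and at most 10% mitochondrial UMIs were kept (12858754 and 12448628 UMIs before filtering). Cells were clustered with scanpy 1.11.5 (Leiden, 30 components, 15 neighbours, resolution 1, and 0.6 within macrophages), leaving out the members and pathway genes, and named where at least 3 of a class's markers were among 30 leading genes, unless over 90% of the cluster's cells met the C1q rule. Counts summed per class or cluster and library were tested with edgeR 4.0.16 (TMM, filterByExpr, quasi-likelihood, library block, adjusted p below 0.05) and, as an alternative, DESeq2 1.42.0. The edgeR and DESeq2 steps were tested on simulated data. Intervals are exact, at 95%, and cover counting error only, and a count of 0 is read as up to 3 counts. All 10 members were named, as were pathway genes called against the mean of the other classes (up to 6) and the 3 genes most like a member. Near copies were sought in the last 600 bases of GENCODE transcripts on GRCm38, which also gave gene positions by Ensembl identifier for all 10 members. Members and lists were chosen with earlier results of these data known. The replicate numbers in the titles fall on libraries with different time labels, so time label was the group.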

Additional observations from a re-analysis of the deposited data

Results flagged for a closer look

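For 7 comparisons the difference between macrophages and another class had opposite signs in the 2 libraries. None of these differences between libraries was tested, since each time label has 1 library, and several rest on few UMIs. Given as the log2 difference at 12 weeks less that at 1 week, the change was 0.67 for Slc7a11 and 1.60 for Gsr against dendritic-like cells, where macrophages went from -0.11 to 0.55 for Slc7a11 and from -0.50 to 1.10 for Gsr. It was -1.12 for Gsto1 and -1.02 for Gstp1 against dendritic-like cells, from 0.77 to -0.35 and from 0.83 to -0.19. Gstp1 in 1-week dendritic-like cells was 1 UMI. Against T-like cells the change was 1.99 for Glrx, from -0.62 to 1.38, and the 1-week T-like value was 3 UMIs. Against B-like cells it was -0.57 for Gstp1 and 0.0868 for Gpx4.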

How the results depend on the processing

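With a stricter cell filter (1000 genes, 2000 UMIs, 5% mitochondrial), which left 5 members to test, 4 members in place of 7 were higher in macrophages against the mean of the other classes and 3 in place of 7 against B-like cells. The lower call against T-like cells (Gstp1) was 0 in place of 1 in DESeq2, with RLE scaling, with no filter on low counts, without the library block, with other classes held to 1 C1q UMI or fewer, with classes set by marker UMIs, and with the stricter cell filter. Higher calls between macrophage clusters numbered 3 in place of 9 without the block. The cause of these changes was not tested. With both libraries kept, signs reversed in 7 instances over 3 comparisons, none of them called in either setting. Gstp1 against B-like cells (-0.10) was 0.0272 in DESeq2, 0.00905 with RLE scaling, 0.24 with no filter and 0.0348 with marker UMIs. Gpx1 against dendritic-like cells (-0.16) was 0.0302 with no filter and 0.32 with marker UMIs, and Gstp1 against dendritic-like cells (0.12) was -0.0848 without the block. Leaving out either library left no residual degrees of freedom, so those values are folds with no test, and a class at 0 UMIs gave none. They are log2 differences of CPM without TMM scaling, whereas the fitted folds are scaled. A gap between them can come from the scaling and the fit as well as from the library left out, and these were not told apart. In 9 comparisons that were not called, the sign in a single library was opposite to that of the fit. For Gpx4 against the mean of the others, 0.01 in the fit stood beside -0.13 at 1 week and -0.19 at 12 weeks. Gsto1 against T-like cells was 0.68 in the fit and -0.09 at 12 weeks. Against dendritic-like cells, Gsto1 and Gstp1 were at -0.35 and -0.19 at 12 weeks, and Slc7a11 and Gsr at -0.11 and -0.50 at 1 week. At 1 week, Gpx4 and Gstp1 against B-like cells were at -0.07 and 0.11. Glrx against T-like cells was 1.20 in the fit and -0.62 at 1 week. No paired analysis was possible because each time label has 1 library, so samples of the time labels cannot be matched; the block above pairs classes within a library. Depth limits the T-like group of 30264 UMIs at 1 week most.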
